A study of Mytilus galloprovincialis with 40 samples.

Results

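The comparison described here set females of the mussel *Mytilus galloprovincialis* caught in May 2007 against females caught in April 2008, with the digestive gland as the tissue. It was chosen by the sample titles and consisted of 4 of the 40 two-colour cDNA microarrays of the study, and all 1920 clones printed on the array were followed across these 4 arrays. In the whole study, females of a sub-tidal population in the Bizerta Lagoon, Tunisia, were taken in each of 12 months, and every month was hybridized against the preceding one, so that the step from April back to May closed a loop of 12 steps. Each array carried RNA of 1 May animal and 1 April animal, untreated and taken from the field, with May in Cy5 on arrays 1 and 3 and in Cy3 on arrays 2 and 4. The methods state that the females came from the gonadal stage most common at that date, so the stage could differ between the months. The May animals were collected 11 months before the April animals. Season and position in the sampling year therefore cannot be told apart in this step.

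The digestive gland is the organ in which bivalves break down and absorb food, and it also stores reserves and takes up metals and organic pollutants. Its activity is known to follow food supply, water temperature and the demand of the developing gonad. In mussels of temperate waters, spring is commonly the time when gametes ripen or are shed and the water begins to warm. The study used the loop to ask how transcript abundance in this organ moved through such an annual cycle.

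The clones were 3′ cDNA probes, each printed in 2 spots. They are known here by position codes only, and the codes were not paired with gene names or sequences, so gene functions, the tissue's own markers, markers of other cell types and probe sequences were not analysed here. Different clones can hold the same transcript, and clones are therefore not independent genes. A clone spot was taken as measured where it was brighter than its surroundings, that is, above the mean of the local background plus 2 SD. Both dyes met this in 63.4%, 37.9%, 41.5% and 45.3% of the clone spots on arrays 1 to 4, against a median of 39.7% and a range of 13.6% to 78.4% over all 40 arrays. The 2 spots of a clone correlated across clones with r of 0.95, 0.91, 0.83 and 0.89 on arrays 1 to 4, so that array 3 repeated itself least. Over the 4 arrays, 709 clones were above background in both months on every array, while 461 clones were above background in May on no array and 386 in April on no array. No spot was saturated. The number of arrays limits the precision of every value below.

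May and April differed in a small part of the clones. To be called, a clone needed a Benjamini-Hochberg adjusted p in limma under 0.05 over all clones together with a log-odds B above 0. In the model fitted to the whole loop, 124 of 1920 clones were called (6.46%), of which 46 were higher in May (2.40%) and 78 lower (4.06%). The mean log2 ratio of May over April on the 4 arrays had a median over all clones of 0.01. Its range between the quartiles was −0.09 to 0.10, and its range from the 5th to the 95th percentile was −0.61 to 0.48. Loess normalization centres the clone ratios of each array near 0. The median therefore cannot show whether the typical transcript moved, and values of dim clones are also drawn towards 0. The extremes were skewed towards May, with a 99th percentile of 1.50 and a 1st percentile of −1.15. Without array 1 the count of called clones was 79, with 29 higher and 50 lower. With ratios centred on the median and not normalized by loess, 37 clones were higher and 40 lower, which brought the share of higher clones among those called to 48.1%, against 37.1% with loess.

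The clones higher in May were fewer but moved further. The 46 of them had a median log2 ratio of 1.26 on the 4 arrays, a 2.39-fold difference, with quartiles of 0.73 and 1.72. Among them 27 exceeded 2-fold and 8 exceeded 4-fold, and the largest mean difference was 5.07-fold. The 78 clones lower in May had a median of −0.89, a 1.85-fold difference, with quartiles of −1.10 and −0.68. Among these 28 exceeded 2-fold and 1 exceeded 4-fold, at 5.14-fold. This asymmetry describes clones that the same arrays selected and was not tested. In these bulk tissue samples, fewer cells of a type and less RNA per cell cannot be told apart.

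Every called clone lay on the same side of 0 on all 4 arrays. The 184 single-array values of the higher clones ran from 0.09 to 2.82, and the 312 values of the lower clones ran from −3.35 to −0.05. One way on all 4 arrays was in itself common, since 338 of the 1920 clones (17.6%) were higher and 342 (17.8%) lower in May on every array. What set the called clones apart was size relative to spread. Their median SD between arrays was 0.33 for the higher and 0.23 for the lower clones, against 0.15 for all clones.

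**Figure D1:**
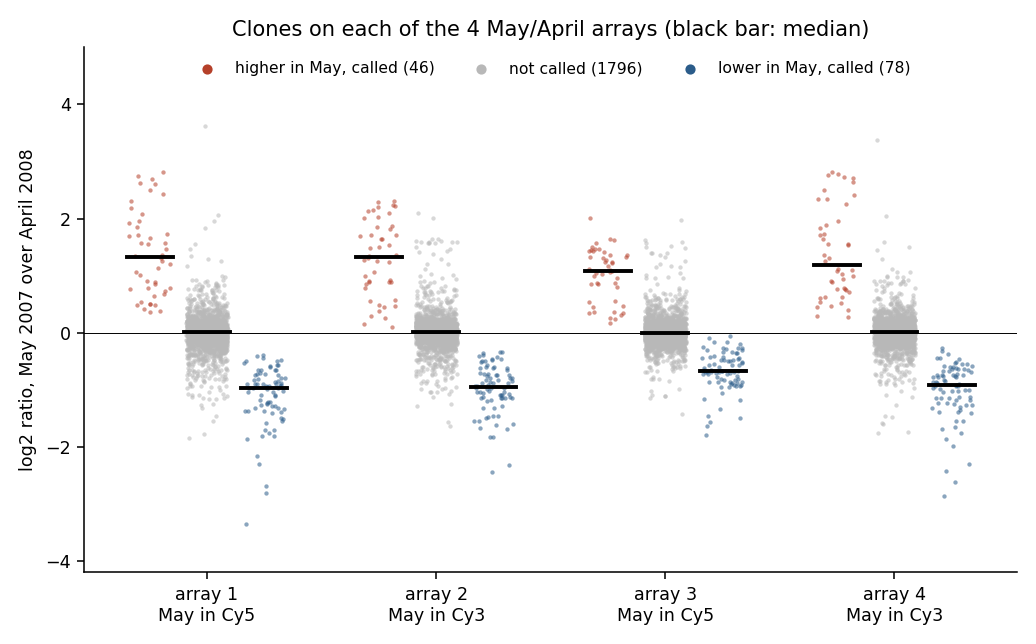
Log2 ratio of May 2007 over April 2008 (vertical axis) of each clone on each of the 4 arrays (horizontal axis, with the dye of May), for the 46 clones called higher in May, the 1796 not called and the 78 called lower in the loop model. Points are clones and black bars are medians, which ran from 1.09 to 1.33 for the higher clones and from −0.97 to −0.68 for the lower clones.

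The 4 arrays gave differences of like size, with array 3 the smallest. On arrays 1 to 4 the median of the 46 higher clones was 1.33, 1.32, 1.09 and 1.19, and that of the 78 lower clones was −0.97, −0.95, −0.68 and −0.92. The means of these array medians were 1.23 ± 0.12 and −0.88 ± 0.14 (SD, n = 4 arrays). Array 3 held the smallest of the 4 values for 26 of the 46 higher clones and for 54 of the 78 lower clones. It was also the array with the narrowest spread over all clones, with an SD of 0.35, against 0.48, 0.44 and 0.45 on arrays 1, 2 and 4. Whether its lower duplicate correlation and its smaller ratios are related was not tested.

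The called clones had medians of like size in both dye orientations. Their direction could not differ between the orientations, since each lay on the same side of 0 on all 4 arrays. For the higher clones the median was 1.14 over the 2 arrays with May in Cy5 and 1.33 over the 2 with May in Cy3, and for the lower clones it was −0.91 and −0.90. With a dye term fitted to the 4 arrays, limma called 0 clones for dye, while 128 of the 1920 (6.67%) had an unadjusted p under 0.05, among them 0 of the 46 higher and 7 of the 78 lower clones. The fit with the dye term left 2 residual degrees of freedom, so 0 calls do not show that dye had no effect. With the dye term in the fit, 123 clones were called for May over April, 52 higher and 71 lower. Across all 1920 clones the arrays most alike were 1 and 4 (r = 0.87) and 2 and 3 (r = 0.80), each a pair of opposite dye orientation, whereas the other 4 pairs had r of 0.63 to 0.77. The study describes biological replicates from single females, and its methods also mention a dye swap. They do not say whether arrays of opposite dye held the same animals. With arrays 1 and 4 and arrays 2 and 3 averaged, as if each pair had held the same animals, 52 clones were called in the loop model, 21 higher and 31 lower. All of these 52 were among the 124.

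The called clones were mostly bright ones. Of the 46 higher clones 37, and of the 78 lower clones 72, were brighter than the median clone by their mean intensity on the 4 arrays. In May, 37 of the 46 higher and 50 of the 78 lower clones were above background on all 4 arrays, and in April 31 and 69 were. One lower clone was not above background in May on any of the 4 arrays, so that its difference is only a bound. Ratios of dim clones are drawn towards 0 by the offset added to both channels. With the dimmest 0.25 of all clones left out, 118 clones were called, 45 higher and 73 lower.

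**Figure D2:**
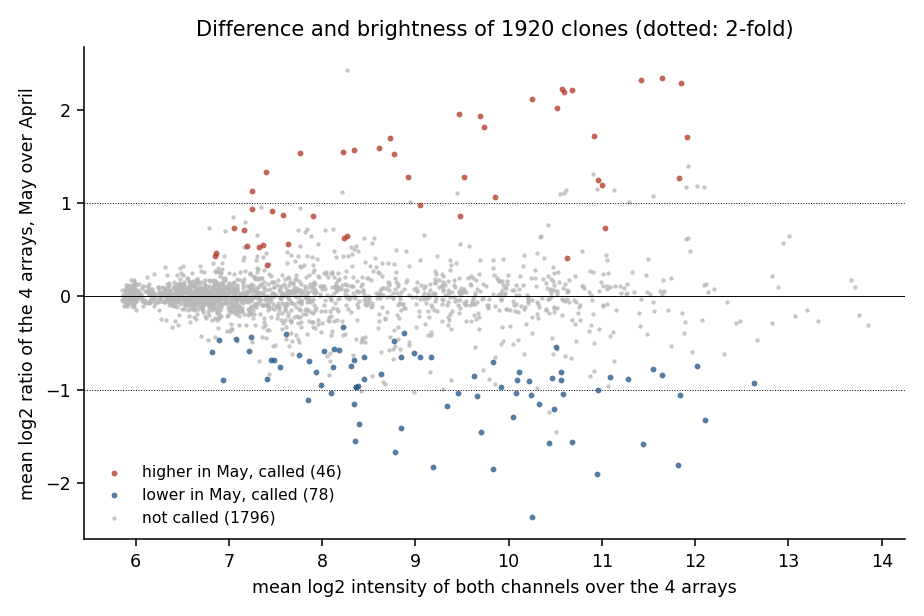
Mean log2 ratio of May over April on the 4 arrays (vertical axis) against the mean log2 intensity of both channels (horizontal axis) for 1920 clones, coloured by their call in the loop model. The called clones are mainly bright ones, the higher ones reach 5.07-fold, and dotted lines mark 2-fold.

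Higher and lower clones were unevenly spread over the position codes. The codes run in 20 groups of 96 clones. Of the 46 higher clones 33 had codes in groups 011 to 020 and 13 in groups 001 to 010, whereas 23 of the 78 lower clones fell in groups 011 to 020 and 55 in groups 001 to 010. In the print layout, each of the 16 print-tip blocks held 120 clones, of which 4 to 19 were called. What the code groups stand for is not given in the sources used here.

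Taken by themselves, the 4 arrays called 155 clones (8.07%), 67 higher (3.49%) and 88 lower (4.58%). Without array 4 the count was 103, and with the alike arrays averaged, which leaves 2 values per clone, it was 7. Of the 46 and 78 clones called in the loop, 36 and 60 were called in the same direction on the 4 arrays alone, and 0 in the opposite direction. Both fits rest mainly on these 4 arrays, so a like direction was given in advance and is not separate support. The 67 higher clones had a median log2 ratio of 1.11, and 41 of them exceeded 2-fold. The 88 lower clones had a median of −0.86, and 26 of them exceeded 2-fold. These 2 lists rest on the 4 arrays only, so the other 36 arrays took no part in their choice and are used for all that follows.

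May and April were also linked through the 11 other steps of the loop, in which each month stood on other arrays. The 67 higher clones, with their median of 1.11 on the 4 arrays, had a median difference of 2.07 along this path (quartiles 1.07 and 2.64), and 65 of the 67 were above 0. Over all 1920 clones the median along the path was −0.06 and 859 were above 0 (44.7%). Leaving out each of the 36 arrays in turn gave 62 to 66 clones above 0 and medians of 1.55 to 2.55. The largest value along the path was 5.17 on the log2 scale. High values of these clones were thus also found on arrays that did not select them.

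The lower clones were set less clearly apart. The 88 lower clones, with their median of −0.86 on the 4 arrays, had a median of −0.41 along the 11 other steps (quartiles −1.04 and 0.08), and 62 of them were below 0 (70.5%), against 55.3% of all clones. Without the first Apr/Mar array, 72 of the 88 were below 0 and the median was −0.57. With ratios centred on the median in place of loess, only 46 of the 88 were below 0 and the median was −0.03. The position of the lower clones outside the 4 arrays therefore depended on the normalization.

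The path through the other steps sums 11 differences and was imprecise. The median standard error per clone was 0.075 for the mean of the 4 arrays and 0.50 for the path. By itself the path called 0 clones in limma, with 195 at an unadjusted p under 0.05, among them 26 of the 67 higher and 16 of the 88 lower clones, each in the direction of the 4 arrays. The difference between the 4 arrays and the path was tested too. It passed the threshold in 0 of 1920 clones, with 144 at an unadjusted p under 0.05, 9 of them among the 67 and 7 among the 88. With this spread, a p that missed the threshold does not show that both values were equal. The labels do not say whether the May and April animals of the 4 arrays were also hybridized on the Jun/May and Apr/Mar arrays, so the 2 sets are known to be independent in their arrays only.

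**Figure D3:**
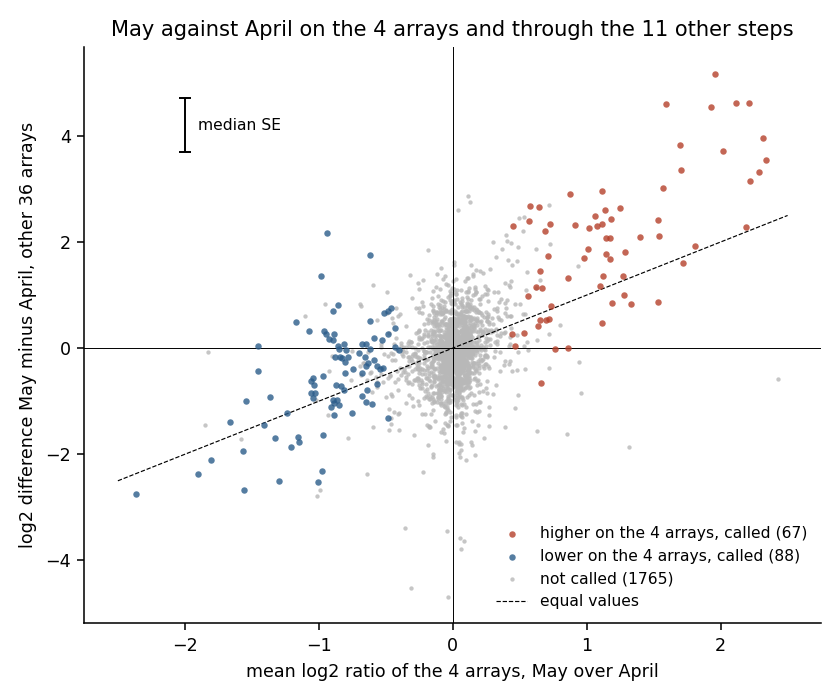
Difference of May and April on the log2 scale through the 11 other steps of the loop (36 arrays, vertical axis) against the mean log2 ratio of the 4 May/April arrays (horizontal axis), for 1920 clones coloured by their call on the 4 arrays alone. Of the 67 higher clones 65 lie above 0, of the 88 lower clones 62 lie below 0, and the bar is the median standard error of 0.50 up and down.

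Most of the clones higher in May shared a course over the year. In the other 36 arrays, with each clone's level set relative to its mean over the 12 months, the median of the 67 clones was 1.68 in May 2007, 2.41 in June, 1.46 in July and 0.76 in August. It was −0.42 in September, −0.55 in October, −1.08 in November, −1.13 in December, −1.02 in January 2008, −0.54 in February, −0.49 in March and −0.35 in April. The medians of all clones, held near 0 by the normalization of each array, stayed between −0.05 and 0.03 in every month. The highest of the 12 months was June for 52 of the 67 clones and lay between May and August for 60 of the 67, against 201 and 723 of all 1920 clones. Leaving out any 1 of the 36 arrays gave 44 to 53 clones with June as the highest month and 59 to 64 with a month between May and August. November to January held the lowest month for 51 of the 67.

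The same clones were low again after the summer. At the Sep/Aug step, which shares no month with the May/April comparison, their median log2 ratio was −1.38 and 59 of the 67 were below 0. The path value and the yearly levels above are built from the other steps, Sep/Aug among them. The fall is therefore part of those values and not separate from them. Of the 67 clones, 33 (49.3%) were called lower at this step, against 59 of all clones (3.07%), so that these 33 made up 55.9% of the step's lower calls. The number of calls rested on single arrays. Without the first Sep/Aug array 15 of the 67 were called among 30 over all clones, and without the second 9 among 19, while 60 and 58 of the 67 stayed below 0. Read from the other side, the 59 clones called lower at Sep/Aug had a median of 0.65 on the 4 May/April arrays, and 53 of the 59 were above 0 there, against 990 of all 1920 clones. The 24 clones called higher at Sep/Aug (1.25%) had a median of −0.22 on the 4 arrays, and 15 of the 24 were below 0.

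The remaining steps filled in this course. At Jun/May the 67 clones had a median of 0.63, and 57 of them were above 0. This step shares the month of May with the May/April comparison, and its value rested on single arrays, with a median of 0.25 without the second Jun/May array and 1.09 without the third. Over all clones 30 were called higher at Jun/May (1.56%) and 30 lower (1.56%). At Jul/Jun the median of the 67 clones was −0.91 with 57 below 0. There 19 of the 67 (28.4%) were called lower, against 27 of all clones (1.41%), so that these 19 made up 70.4% of the step's lower calls. Without the first Jul/Jun array 3 of the 67 were called lower, among 16 over all clones. At Aug/Jul the median of the 67 was −0.57 with 58 below 0, and at Nov/Oct it was −0.59 with 55 below 0. At Feb/Jan the median was 0.28 with an upper quartile of 1.42, and 54 were above 0. The medians of all clones, held near 0 by the normalization of each array, lay between −0.01 and 0.02 at each of the 11 other steps.

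As a list, the clones lower in May had no such common course. In the other 36 arrays the median of the 88 clones ran from −0.18 in May 2007 to 0.33 in April 2008 and stayed between −0.11 and 0.14 in the months from June to March. The highest month was October for 18 of the 88 and April for 16, and the lowest was May for 18. Among all 1920 clones, 132 had their highest month in October, 211 had it in April, and 319 had their lowest month in May. Parts of the list did move at single steps. At Nov/Oct 12 of the 88 were called higher and 8 lower, against 123 and 52 of all clones. At Jan/Dec 8 of the 88 were called higher and 1 lower, against 19 and 24 of all clones. At Feb/Jan 10 of the 88 were called higher and 2 lower, against 36 and 14 of all clones. Among those 36 were also 20 of the 67 clones higher in May. Without the first Feb/Jan array the 36 fell to 18. Pairs of the 67 higher clones correlated over the 36 arrays with a median r of 0.51 and a lower quartile of 0.08, and 50.4% of their 2211 pairs exceeded 0.5. For the 88 lower clones the median r was 0.06 and 8.54% of 3828 pairs exceeded 0.5, against a median of 0.00 and 1.79% among all pairs of clones. These correlations describe clones measured on the same arrays, and clones of the same transcript would raise them.

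**Figure D4:**
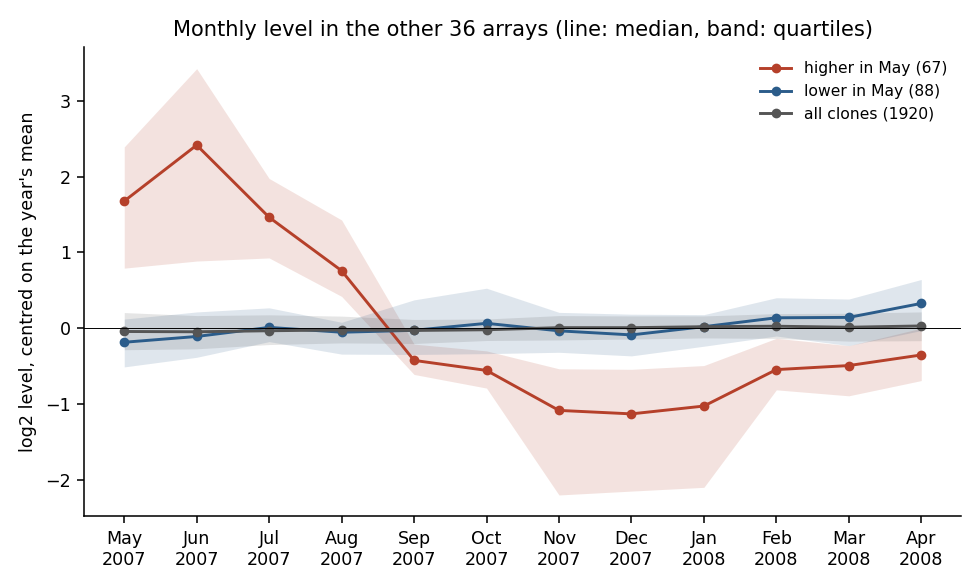
Median level (lines) and quartiles (bands) of the 67 clones higher and the 88 lower in May on the 4 arrays, and of all 1920 clones, in each month from May 2007 to April 2008 in the other 36 arrays, on the log2 scale relative to each clone's mean over the 12 months. The higher clones peak in June at a median of 2.41 and lie lowest in December at −1.13, and the lower clones stay within −0.18 and 0.33.

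Of the clones called higher, the 2 with the strongest support by B that moved one way on all arrays were Myt01-016D05 and Myt01-015G10. The log2 ratio of Myt01-016D05 was 1.35, 1.50, 1.24 and 1.04 on arrays 1 to 4, with a mean of 1.28 ± 0.19 (SD, n = 4 arrays). All 4 arrays were high, and the clone was above background in both months on each of them. Its difference in the loop model was 1.32 ± 0.17 (SE), or 2.49-fold, and limma gave an adjusted p of 1.58e-06. The log2 ratio of Myt01-015G10 was 2.82, 2.30, 1.43 and 2.82, with a mean of 2.34 ± 0.65 (SD, n = 4 arrays). Here arrays 1 and 4 were highest and array 3 was lowest, yet the lowest value was still far above 0. The loop model gave 2.42 ± 0.34 (SE), or 5.37-fold, and limma gave an adjusted p of 5.06e-06. The 2 spots of these clones differed by at most 0.17 and 0.089 on any array, less than the spread between arrays.

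These 2 clones had different courses outside the 4 arrays. Through the 11 other steps, Myt01-016D05 was 1.80 ± 0.68 (SE) higher in May than in April, with a 95% interval of 0.40 to 3.20, and it stayed between 1.58 and 1.88 above April from June to September. It then dropped at Oct/Sep, where its 3 arrays gave −0.98, −1.36 and −0.91 and limma called it lower at an adjusted p of 0.0036. Myt01-015G10 was 3.54 ± 1.31 (SE) higher in May than in April on this path, with a 95% interval of 0.87 to 6.22, and reached 3.78 ± 1.24 in June. It was lower than April in November, December and January, at −2.20 ± 0.84, −2.27 ± 0.74 and −2.25 ± 0.61 (SE). Its descent was called at Jul/Jun, with −3.19, −1.16 and −1.46 on the 3 arrays, and at Sep/Aug, with −1.89, −2.83 and −0.59. At Feb/Jan it rose again, with 1.70, 1.58, 1.60 and 1.05 on the 4 arrays.

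Of the clones called lower, the 2 with the strongest support were Myt01-016C08 and Myt01-017C08. The log2 ratio of Myt01-016C08 was −1.71, −1.82, −1.57 and −1.55 on arrays 1 to 4, the most even of the named clones, with an SD of 0.13 around its mean of −1.67. In the loop model it fell by 1.65 ± 0.14 (SE) on the log2 scale, a 3.13-fold difference, at an adjusted p of 2.67e-10 by limma. The log2 ratio of Myt01-017C08 was −1.81, −1.63, −1.34 and −1.40, with a mean of −1.54 ± 0.22 (SD, n = 4 arrays). Its loop estimate was −1.51 ± 0.15 (SE), or 2.84-fold lower, at an adjusted p of 1.96e-08 by limma. Both clones were above background on all 4 arrays in April and on 3 of 4 in May.

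Both lower clones were low in early summer as well, and again in October. Through the other 36 arrays, Myt01-016C08 differed by −1.39 ± 0.55 (SE) between May and April, with a 95% interval of −2.52 to −0.26, by −1.64 ± 0.52 between June and April and by −0.79 ± 0.50 between July and April. In September it stood at 0.24 ± 0.43 relative to April, within its error of 0. It was at −0.82 ± 0.40 in October, −0.02 ± 0.36 in November and −0.66 ± 0.26 in January. Myt01-017C08 differed by −0.99 ± 0.60 between May and April, with a 95% interval of −2.22 to 0.23, which includes 0. In June it was at −1.22 ± 0.57 and in September at 0.29 ± 0.47. It was at −0.88 ± 0.43 in October, −0.29 ± 0.39 in November and −0.79 ± 0.34 in December. Both clones were called lower at Oct/Sep, where Myt01-016C08 gave −1.19, −0.72 and −1.24 and Myt01-017C08 gave −1.05, −1.28 and −1.17 on the 3 arrays. The 4 arrays and the other 36 did not differ past the threshold for any of the 4 named clones, and the 95% interval of that difference was widest for Myt01-015G10, at −3.93 to 1.54.

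**Figure D5:**
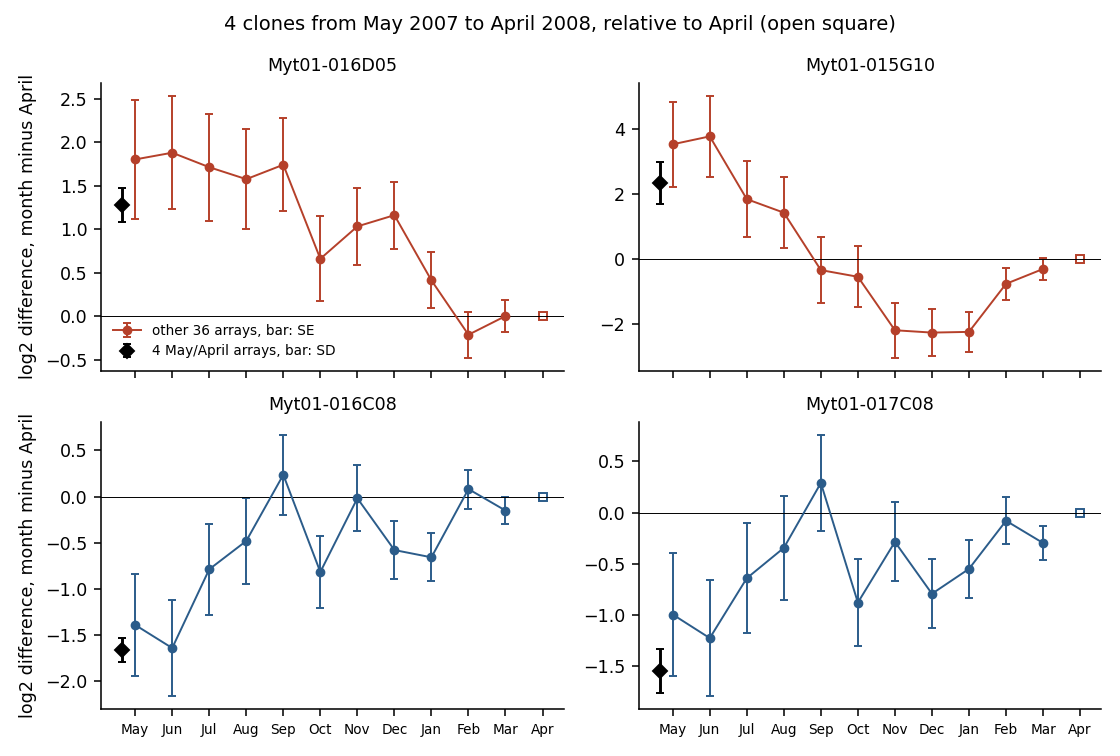
Log2 difference of each month from April 2008 (vertical axes) in the other 36 arrays for the 4 named clones, from May 2007 to March 2008 (points with SE, open square for April at 0), with the mean of the 4 May/April arrays as a black diamond (bar, SD). Both higher clones lie above April from May to August, and both lower clones lie below April from May to August, with May values of 1.80, 3.54, −1.39 and −0.99.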

How the data were processed

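The authors deposited spot intensity values for each of the 40 arrays, the mean foreground and median local background per dye, read with GenePix and not normalized. Log2 ratios that the authors normalized with limma (background correction with an offset, loess) were deposited as well and served as an alternative, without the third Dec/Nov and the fourth Mar/Feb columns, which did not match their own scanner values.

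Intensities were corrected by normexp (offset 50), which raises the low values and so shrinks ratios of dim clones. Log2 ratios were normalized within arrays by global loess on the clone spots, turned to May over April by the dye labels, and the 2 spots of a clone averaged. Each array held 4560 spots, including 608 positions with no clone and 112 alignment spots, which were not used.

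limma 3.58.1 in R 4.3.3 was fitted to all 1920 clones, as a loop with 1 coefficient per month (40 arrays, 29 residual degrees of freedom), to the 4 arrays alone (with and without a dye term), to the other 36 arrays, and with 1 coefficient per step. A call needed a Benjamini-Hochberg adjusted p under 0.05 over all clones and B above 0. The fits were tested on simulated data. The p-values measure the spread between arrays, which by the study's account held single animals. In the loop model this spread was pooled over all 40 arrays. With the spread of the 4 arrays alone, limma gave the 4 named clones adjusted p-values from 8.0e-05 to 0.00065.

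The named clones are the 2 called clones per direction with the highest B that moved one way on all 4 arrays. The comparison, the lists and the tests were chosen with earlier results of these data known. Alternatives changed the background correction, normalization, filter on dim clones, dye term, array weights, call rule and adjustment, or left out arrays. Averaging alike arrays and leaving out arrays of the other steps were added after seeing the data.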

Additional observations from a re-analysis of the deposited data

Results flagged for a closer look

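The median log2 ratio of the 78 clones lower in May was −0.68 on array 3 of the May/April arrays, against −0.97, −0.95 and −0.92 on arrays 1, 2 and 4, and its distance from the other 3 arrays was 0.84 of the whole range, past Dixon's 95% critical value for 4 samples. It was the only one past that value among 11 sets of 4 array values examined (the measures of array quality, the medians of the called clones and the 4 named clones). Chance would put about 1 such set in 20 past it, and 97 of the 1920 clones (5.05%) were past it on the 4 arrays. Without array 3 the loop model called 112 clones, 32 higher and 80 lower, against 124 with it. The cause of its smaller ratios was not tested.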

How the results depend on the processing

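The 124 clones called in May over April became 77 with median centring, 258 with array weights, 234 with the adjusted p alone and 52 with alike arrays averaged. Leaving out each May/April array in turn gave 79 to 112 clones. With the replicate block the count was 126. Same-numbered arrays of different steps had a median r of 0.02 over 204 pairs (range −0.36 to 0.47). These pairs pool adjacent and distant steps, so the median cannot show whether adjacent steps shared animals. The other settings gave 87 to 169 clones. Plain background subtraction gave 87, scaling between arrays 169 and the authors' log2 ratios 121. All 46 higher and all 78 lower clones kept their direction under the 5 changes of background correction or normalization within arrays and without each of the 4 arrays. Leaving out 1 array could hardly reverse a direction, because each of these clones lay on the same side of 0 on all 4. Without 1 of the 4 arrays, 29 to 31 of the 46 and 50 to 73 of the 78 stayed called. The 4 named clones stayed called with the same direction under 20 alternatives each.

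On the 4 arrays alone, 155 clones became 82 without background correction and 7 with alike arrays averaged, which leaves 2 values per clone. Leaving out each array gave 103 to 155. For the dye-adjusted mean, 123 became 60 without background correction. For the other 36 arrays, for the 4 arrays minus the other 36 and for dye, the count was 0 in limma under each alternative run. The 60 calls at Jun/May ranged from 30 (without the second array) to 64, and the 83 at Sep/Aug from 29 (without the second) or 50 (without the first) to 97. The number of arrays and the brightness of the spots limit what was detectable. The animals were single wild females collected 11 months apart, and the clones carry no gene names here.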
